A study of Mus musculus with 6 samples.

Results

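Microglia of mouse brain were compared between sham surgery and tMCAO. The abbreviation usually means that the middle cerebral artery was blocked for a time and reopened, which models ischemic stroke. Described here are the 719 unannotated loci with the strongest signal, out of 38207 genes and loci in the table. They were chosen by their level: rows that the authors typed as new genes, 15743 in all, with a mean of at least 20 CPM (counts scaled to a common library total) over the 6 libraries. That mean chose the members, so levels are given as a description. The rule used no contrast between the groups, but a locus high in 1 group could reach the level through that group alone, as 94 did through sham and 77 through tMCAO. The 6 cDNA libraries were read on nanopores, 3 from wild-type (WT) mice with sham surgery and 3 from WT mice with tMCAO, and the cells of 30 mice were pooled for each. The labels state neither age, sex, time after surgery nor how the cells were isolated, and the extraction protocol speaks of tissue. Whether the pools were prepared apart is not said either, and the p-values below cover only the spread from pool to pool.

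Long reads can cover an RNA molecule from end to end, and reads that lie outside known gene models can be gathered into new loci. Such loci may be genes missing from an annotation, long noncoding or antisense RNAs, or extensions of neighbouring transcripts, and they may also come from unspliced RNA or from reads that fit several copies of a sequence. In microglia, as in other macrophages, many noncoding transcripts change with activation. The table gives each locus a running number with the prefix ONT and no name, position, strand, length, exon or sequence, so which of these kinds a locus belongs to was not tested. CPM was not divided by length, and levels of different loci are numbers of reads, not of molecules per length.

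Totals ran from 1855495 to 2614512 counts per library, so 1 count was 0.382 to 0.539 CPM. Summed over 15 microglial markers, none of them at 0, levels were 44781 to 45603 CPM in sham and 44795 to 48470 in tMCAO. Markers of other cells were present too. In sham libraries 1, 2 and 3, 9 measured choroid plexus markers summed to 13970, 44680 and 8640 CPM and 7 erythroid markers to 2865, 6041 and 955, and both sums were highest in sham 2. In tMCAO these ran from 2276 to 9986 and from 215 to 380 CPM. The sums over 10 astrocyte markers were 141 to 419 in sham and 64.0 to 91.1 in tMCAO, those over 10 myelin markers 196 to 1071 and 155 to 372, and those over 10 neuronal markers 11.5 to 16.0 and 5.33 to 8.86, with Gad2 at 0 in every library. Over 7 markers of border-associated macrophages the sums were 184 to 231 in sham and 380 to 492 in tMCAO. For 9 neutrophil markers they were 1812 to 2296 and 419 to 1817, for 7 monocyte markers 73.8 to 91.2 and 71.9 to 185, and for 7 endothelial markers 177 to 256 and 115 to 294. In such bulk pools, fewer cells of a type and less RNA per cell cannot be told apart.

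The abundant loci took up a visible part of each library. Their share of all counts was 7.53%, 6.25% and 7.64% in sham 1 to 3 and 6.08%, 6.90% and 5.73% in tMCAO 1 to 3. The groups overlapped, because sham 2 lay below tMCAO 2. The mean share was 7.14 ± 0.774% in sham and 6.24 ± 0.602% in tMCAO (SD, n = 3), a difference that did not pass the two-sided exact permutation test (p = 0.2, 0.6 adjusted over 4 such shares; the smallest p that 3 libraries against 3 allow is 0.1). All new loci together held 12.5 ± 1.65% and 10.9 ± 1.19% (exact permutation p = 0.3, adjusted 0.6). Among the counts of new loci, those of the 719 made up 57.0 ± 1.43% in sham and 57.5 ± 0.922% in tMCAO (exact permutation p = 0.6, adjusted 0.7). Without the 12 loci of highest mean, the members' share of all counts was 4.22 ± 0.597% in sham and 4.01 ± 0.419% in tMCAO (exact permutation p = 0.7, adjusted 0.7).

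**Figure D1:**
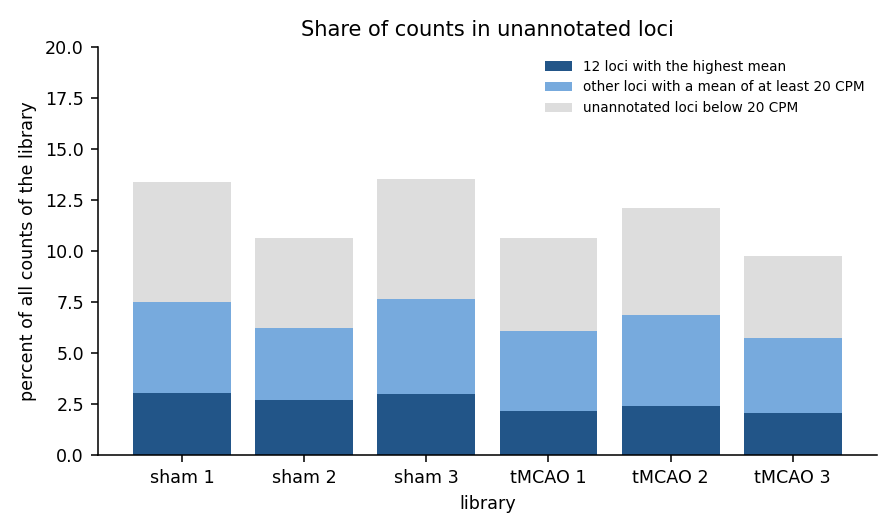
Stacked bars give the percent of each library's counts (y axis) held by the 12 loci with the highest mean, by the other loci at or above 20 CPM and by the remaining unannotated loci, for each library (x axis). The whole bar is 13.4%, 10.6% and 13.6% in sham 1 to 3 and 10.7%, 12.1% and 9.79% in tMCAO 1 to 3.

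Levels fell off steeply from the top of the list. The median of the 719 means was 34.1 CPM, 492 lay under 50 CPM, 85 reached 100 CPM and 10 reached 1000 CPM. The median over all 15743 new loci was 2.23 CPM. Reads were found in all 6 libraries for 717 of the members, and 369 were at or above 20 CPM in every library. The exceptions were ONT.22704, with counts of 0, 198 and 0 in sham 1 to 3 and 324, 562 and 91 in tMCAO 1 to 3, and ONT.20003, with 48, 85 and 63 in sham and 230, 18 and 0 in tMCAO. Neither passed the test described below (adjusted p = 0.435 and 0.860). Just inside the level lay ONT.22259 (mean 20.02 CPM), ONT.7973 (20.01) and ONT.5656 (20.004), and just outside it ONT.74 (19.99), ONT.4239 (19.91) and ONT.2203 (19.89).

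At the top of the list stood ONT.15158, which fell. It had 9069, 7033 and 9368 CPM in sham 1 to 3 and 3869, 4105 and 3999 CPM in tMCAO 1 to 3. Every tMCAO library lay below every sham library, and the fitted log2 fold change of tMCAO over sham was -1.20 ± 0.13 (SE, adjusted p = 6.96e-05). The next locus, ONT.350, had 3952, 3817 and 3390 CPM in sham and 4972, 5414 and 4298 in tMCAO. Its groups did not overlap, yet it did not pass (0.27 ± 0.13, adjusted p = 0.154). ONT.10033 fell, from 5414, 4392 and 4722 CPM in sham to 3305, 3636 and 3746 in tMCAO (-0.56 ± 0.13, adjusted p = 0.0103). Its call was lost without sham 1 or tMCAO 1, and its adjusted p ran from 0.00193 to 0.0696 over all alternatives.

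Of the other 9 loci among the 12 highest, 5 fell and 1 rose. ONT.20189 had 2082, 2062 and 2266 CPM in sham and 1703, 1441 and 973 in tMCAO (-0.77 ± 0.16, adjusted p = 0.00655), with tMCAO 3 lowest. ONT.8086 went from 1869, 1684 and 2208 CPM to 1166, 1187 and 1114 (-0.85 ± 0.13, adjusted p = 0.000937). ONT.381 went from 1923, 1661 and 1976 CPM to 1312, 1319 and 1411 (-0.57 ± 0.13, adjusted p = 0.00928). In all 3 the groups were apart, and the call of ONT.381 was lost without sham 1 (adjusted p = 0.0514, the highest of alternatives that began at 0.00301). ONT.19434 had 1050, 1028 and 1375 CPM in sham and 934, 920 and 865 in tMCAO (-0.46 ± 0.14, adjusted p = 0.0382). ONT.10498 had 1159, 1237 and 1160 CPM in sham and 486, 752 and 946 in tMCAO (-0.81 ± 0.24, adjusted p = 0.0427). Both were close to the threshold: leaving out any library but tMCAO 3 ended either call, with adjusted p-values of up to 0.164 and 0.168 and lowest values of 0.0236 and 6.82e-06.

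ONT.16980 was the 1 of these 12 that rose, from 600, 519 and 771 CPM in sham to 1291, 2044 and 844 in tMCAO (1.02 ± 0.29, adjusted p = 0.0478). The rise was uneven, with tMCAO 3 near sham 3, and its call was lost in 8 of 15 alternatives, among them the removal of any 1 sham library or of tMCAO 1. Over all alternatives its adjusted p ran from 3.23e-09 to 0.132. ONT.1023 had 906, 846 and 924 CPM in sham and 1301, 1320 and 1120 in tMCAO (0.36 ± 0.13). It missed the threshold at an adjusted p = 0.0627, with no overlap of the groups, and passed in 4 alternatives: library totals, limma voom, no filter on low counts and without tMCAO 3 (adjusted p from 0.0219 to 0.215 over all). ONT.25331 had 1191, 1139 and 1029 CPM in sham and 959, 1111 and 944 in tMCAO (-0.28 ± 0.14, adjusted p = 0.177). ONT.25400 had 1127, 1752 and 983 CPM in sham and 544, 989 and 388 in tMCAO (-1.15 ± 0.41, adjusted p = 0.12). The groups of these last loci overlapped. ONT.25400 passed with DESeq2, with limma voom, without tMCAO 2 and in 1 further alternative, and its adjusted p ran from 0.000815 to 0.293. As a sum, the 12 loci held 3.03%, 2.72% and 3.02% of counts in sham 1 to 3 and 2.18%, 2.42% and 2.06% in tMCAO 1 to 3, without overlap. Of this, ONT.15158 alone held 0.907%, 0.703% and 0.937% in sham and 0.387%, 0.410% and 0.400% in tMCAO. The sum was not tested.

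**Figure D2:**
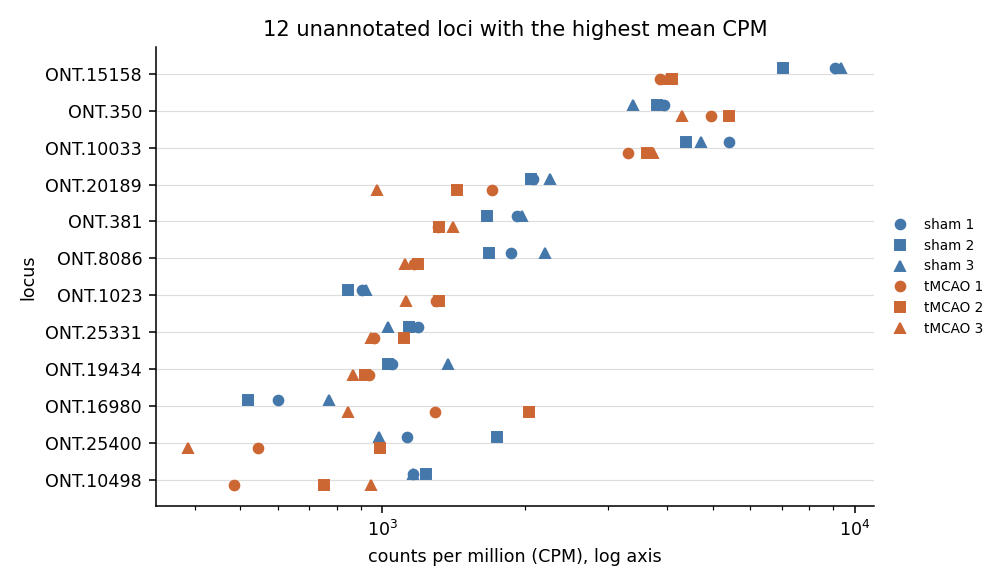
Each row is 1 of the 12 loci with the highest mean, each point 1 library, and the x axis its CPM on a log scale, with sham in blue and tMCAO in orange. The tMCAO points of ONT.15158 sit between 3869 and 4105 CPM, left of its sham points at 7033 to 9368, while those of ONT.350 lie to the right of sham.

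The comparison of tMCAO with sham asks which transcripts of pooled microglia differ after ischemic stroke. All 719 loci passed the filter on low counts. With edgeR's quasi-likelihood test and Benjamini-Hochberg adjustment over the 13127 genes and loci tested, at a threshold of 0.05, 68 loci rose and 145 fell, and 506 did not pass. The called loci were thus 29.6% of the members, against 18.1% of everything tested. The first share includes loci that reached the level through 1 group alone. Among the 548 with both group means at or above 20 CPM, 23.7% were called. Those higher were 9.46%, beside a background of 9.17%, and those lower 20.2%, beside a background of 8.96%. The share of rises was near the background. Called changes of at least 2-fold numbered 36 upward and 82 downward of the 719, beside 806 and 846 of the 13127 tested. The median log2 fold change of the loci was -0.14, beside a median of 0.00 over all tested, and the middle of the distribution ran from -0.66 (lower quartile) to 0.34 (upper quartile).

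Known genes at the same level gave another picture, though the difference between the sets was not tested. Of 4410 known genes with a mean of at least 20 CPM, 20.7% were called, 13.1% higher and 7.55% lower, and their median log2 fold change was 0.06. The 3622 tested new loci below the level had 17.8% called, 4.06% higher and 13.8% lower, with a median of -0.28. Downward calls thus outnumbered upward calls among new loci on both sides of the level. The same held for the 145 tested rows that the authors typed as new long noncoding RNA genes. Of these, 5.52% were higher and 20.7% lower, with a median of -0.45. The groups did not overlap in 289 of the 719 loci (40.2%), 136 with tMCAO higher and 153 with tMCAO lower. Of all 13127 genes and loci tested, 4966 (37.8%) did not overlap, 3053 with tMCAO higher and 1913 with tMCAO lower. Overlap was judged on CPM, scaled to library totals only, unlike the calls.

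**Figure D3:**
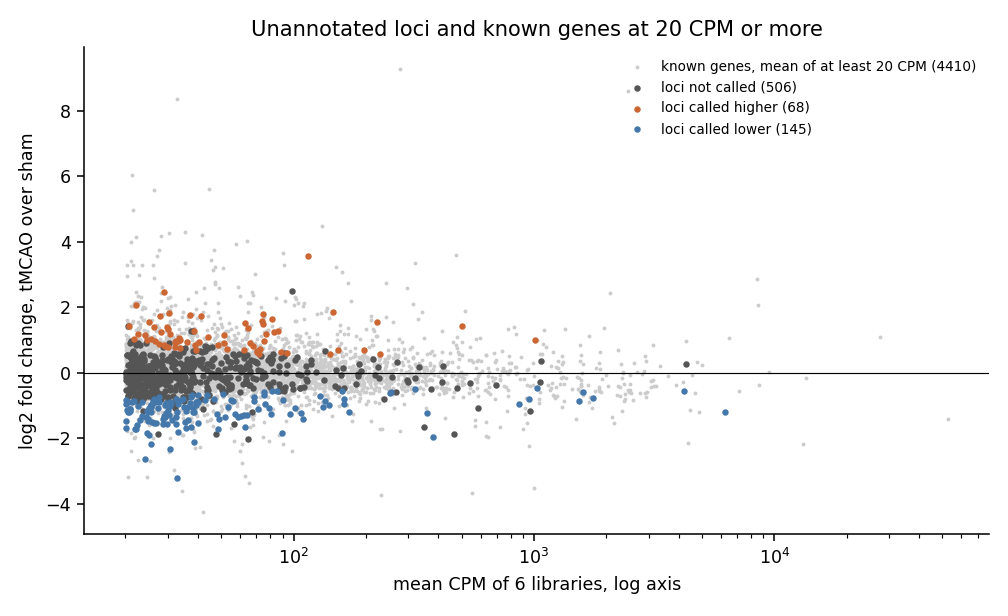
Each point is a locus (or, in grey, 1 of 4410 known genes), with its mean CPM over 6 libraries on a log x axis and its log2 fold change of tMCAO over sham on the y axis. The 145 loci called lower, in blue, reach the highest levels of the list, and the 68 called higher, in orange, reach a log2 fold change of 3.57.

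Some members reached the level through only 1 group, and these had to differ. The sham mean alone was at or above 20 CPM for 94 loci, of which 60 fell, and the tMCAO mean alone for 77, of which 23 rose. Among the 548 loci with both group means at or above 20 CPM, 45 rose (8.21%) and 85 fell (15.5%), with a median log2 fold change of -0.13. By level, calls downward were 54 of 294 loci between 20 and 30 CPM, 43 of 198 between 30 and 50, 24 of 142 between 50 and 100, 18 of 75 between 100 and 1000, and 6 of the 10 at or above 1000 CPM. Upward calls in the same bands numbered 18, 19, 22, 8 and 1. Downward shares of the bands ran from 16.9% (50 to 100 CPM) to 60.0% (at or above 1000 CPM). Upward shares ran from 6.12% (20 to 30 CPM) to 15.5% (50 to 100 CPM). Of everything tested, at any level, 8.96% fell and 9.17% rose. Known genes were not split into these bands. The bands include loci that reached the level through 1 group alone, so their counts partly reflect the choice. The bands are a description, and differences between them were not tested.

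Counts of calls depended on the libraries used. Without sham 1 there were 41 rises and 77 falls, 96 falls without sham 3, and 44 and 38 rises without sham 2 and without tMCAO 2. Counts over everything tested also dropped, from 1204 rises and 1176 falls with all libraries to 700 and 554 without sham 1. They were 792 falls without sham 3, and 900 and 849 rises without sham 2 and without tMCAO 2. With sham 1 and tMCAO 3 both left out, 46 rose and 89 fell, beside 921 and 652 of everything tested. Scaled by library totals alone, 55.8% of the calls were downward (84 higher, 106 lower) in place of 68.1%, and with no filter on low counts 57.6% were (112 higher, 152 lower). Over everything tested, library totals gave 1485 higher and 863 lower, and no filter on low counts 2053 and 1986. Library totals also moved the median of all tested genes to 0.11, and that of the loci to -0.03. Calls that held in all 15 alternatives numbered 27 of the 68 rises and 66 of the 145 falls, and none turned to the opposite call.

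The largest changes were taken among called loci whose groups did not overlap. Of the 8 rises 6 reached the level through tMCAO alone, and of the 8 falls 6 through sham alone, so these had to differ and their tests lend no support beyond the choice. The exceptions, with both group means at or above 20 CPM, were ONT.16851 and ONT.25797 among the rises and ONT.4175 and ONT.15967 among the falls. The largest rise belonged to ONT.21051, at 16.4, 15.9 and 16.4 CPM in sham and 212, 312 and 114 in tMCAO. Its sham libraries were almost level and its lowest tMCAO library lay far above them (3.57 ± 0.33, adjusted p = 0.000168, between 3.23 and 3.87 in every alternative). ONT.6224 rose from 8.86, 6.74 and 8.80 CPM to 68.5, 34.0 and 46.3 (2.49 ± 0.29, adjusted p = 0.000127). ONT.19179 rose from 9.28, 6.34 and 8.03 CPM to 27.6, 37.7 and 43.7 (2.09 ± 0.28, adjusted p = 0.000335). ONT.16851 rose from 48.9, 57.9 and 68.8 CPM to 178, 311 and 207 (1.86 ± 0.22, adjusted p = 0.000168). These 4 kept their call in all 15 alternatives run. For ONT.21051, ONT.6224 and ONT.19179, which entered through tMCAO alone, this lends no support beyond the choice.

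ONT.7928 and ONT.20026 also kept their calls in every alternative. The former rose from 20.2, 13.5 and 13.4 CPM to 66.5, 65.2 and 44.2 (1.78 ± 0.23, adjusted p = 0.000316), and the latter from 17.3, 12.3 and 6.50 CPM to 41.9, 57.7 and 31.4 (1.73 ± 0.33, adjusted p = 0.00439). ONT.14237 rose from 15.6, 11.1 and 10.7 CPM to 27.6, 42.6 and 74.0 (1.84 ± 0.38, adjusted p = 0.0102). ONT.25797 rose from 47.2, 23.0 and 23.3 CPM to 77.3, 135 and 141 (1.81 ± 0.35, adjusted p = 0.00985). The groups of both were apart, and the call of ONT.14237 was lost without sham 3 (adjusted p = 0.0557, beside a lowest value of 1.18e-11 over the alternatives). ONT.7928, ONT.20026 and ONT.14237 entered through tMCAO alone, so their tests lend no support beyond the choice.

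ONT.17205 had the largest fall, from 59.5, 36.1 and 79.9 CPM in sham to 8.86, 7.55 and 3.73 in tMCAO. Its sham libraries spread widely, and its highest tMCAO library lay far below its lowest sham library (-3.22 ± 0.34, adjusted p = 0.000109). ONT.8461 fell from 49.3, 28.1 and 45.9 CPM to 8.37, 8.08 and 4.79 (-2.64 ± 0.29, adjusted p = 9.13e-05). ONT.11088 fell from 34.2, 44.4 and 45.1 CPM to 12.8, 9.16 and 7.99 (-2.16 ± 0.25, adjusted p = 0.000135). ONT.5589 fell from 65.4, 58.7 and 60.4 CPM to 17.7, 19.9 and 9.05 (-2.10 ± 0.24, adjusted p = 0.000133). In all 4 of these loci, as in 99 of the 145 that fell, tMCAO 3 was the lowest library. All 4 entered through sham alone, so their tests lend no support beyond the choice.

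ONT.4175 joined a high level with a large fall, from 624, 526 and 643 CPM to 188, 134 and 177 (-1.96 ± 0.17, adjusted p = 1.66e-05). ONT.13919 fell from 43.0, 35.3 and 38.2 CPM to 13.8, 14.0 and 5.86 (-1.91 ± 0.28, adjusted p = 0.000614). Both kept their call in every alternative. ONT.13919, and ONT.25398 which follows, entered through sham alone, so their tests lend no support beyond the choice. ONT.25398 fell from 50.2, 71.0 and 30.2 CPM to 7.88, 16.7 and 8.52 (-2.33 ± 0.39, adjusted p = 0.00401), a call lost only with sham 1 and tMCAO 3 both left out (0.0625, the highest of alternatives that began at 8.83e-16). ONT.15967 fell from 118, 69.0 and 226 CPM to 51.7, 43.1 and 28.8 (-1.85 ± 0.44, adjusted p = 0.0344). Its sham libraries spread widely, and its call was lost in 7 of 15 alternatives, including those without sham 1 or any of the tMCAO libraries in turn (adjusted p from 2.42e-09 to 0.179).

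**Figure D4:**
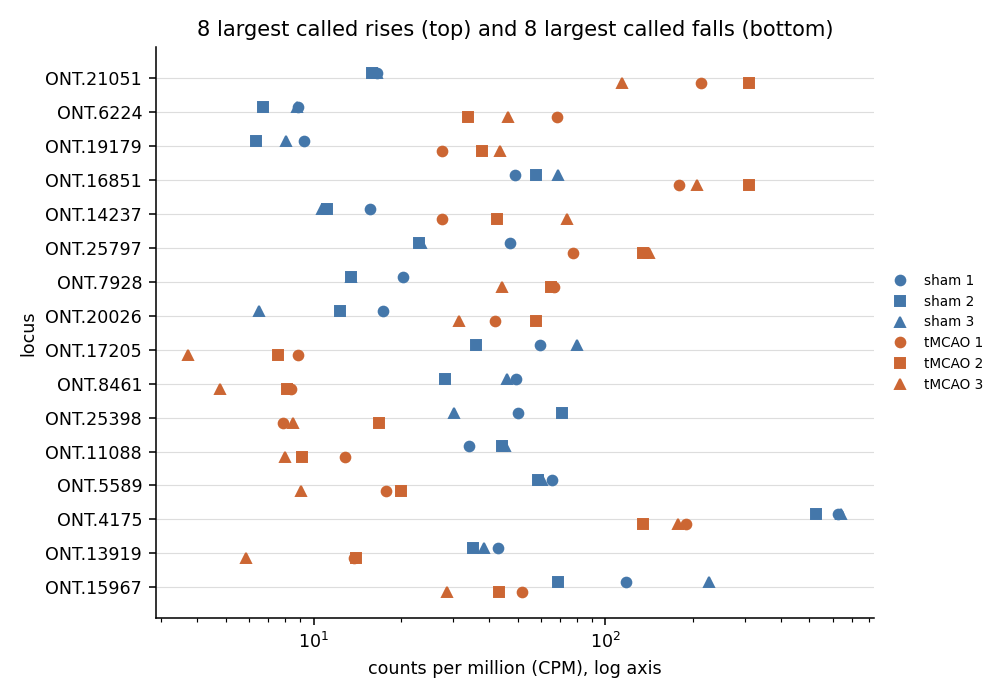
Rows are the 8 largest rises and the 8 largest falls among called loci chosen for having no overlap of the groups, points are single libraries (sham blue, tMCAO orange), and the x axis is CPM on a log scale. ONT.21051 runs from 15.9 to 16.4 CPM in sham and from 114 to 312 in tMCAO, and ONT.17205 from 36.1 to 79.9 and from 3.73 to 8.86.

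Within a group, many of the loci ranked the libraries in the same way. Sham 2 was the lowest sham library for 548 of the 719 loci (76.2%), for 47 of the 68 that rose and for 122 of the 145 that fell. Among known genes at 20 CPM or more it was lowest for 41.6%. In tMCAO, library 3 was lowest for 387 loci (53.8%) and library 2 highest for 387, where the corresponding shares of known genes were 39.0% and 23.0%. These ranks used CPM, scaled to library totals only. The further scaling factors of the fitted test (TMM) were 0.980, 0.920 and 0.987 in sham 1 to 3. In tMCAO 1 to 3 they were 1.07, 1.07 and 0.979, and their part in these ranks was not tested. Sham 2 is the library with the highest choroid plexus, erythroid, astrocyte and myelin marker sums, and the part of these in the low levels of the loci was not tested. Without sham 2, 145 loci were called lower, 125 of them among the 145 called with all libraries, and the median log2 fold change was -0.23. The median coefficient of variation of the loci was 20.9% in sham and 23.2% in tMCAO. That of known genes of at least 20 CPM was 12.7% and 15.1%, a difference that was not tested. The sets were not matched for level. In sham the median of the loci was 22.9% between 20 and 30 CPM and 9.93% at or above 1000 CPM.

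**Figure D5:**
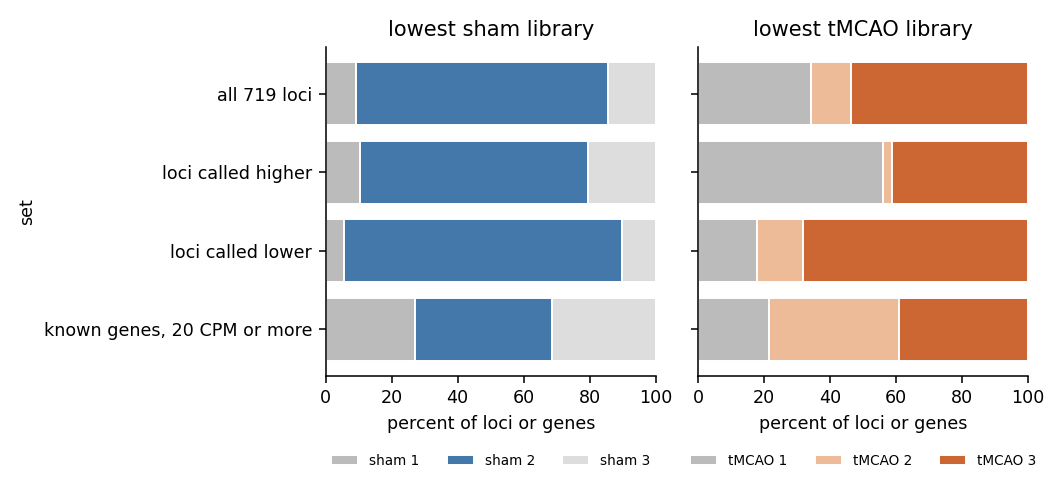
Bars give the percent of loci or genes (x axis) whose lowest sham library (left) or lowest tMCAO library (right) was library 1, 2 or 3, for all loci, those called higher, those called lower and the known genes. Sham 2 takes 76.2% of all loci and 41.6% of known genes, and tMCAO 3 takes 53.8% and 39.0%.

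Running numbers of the loci carried positional information. The table also lists 139 known long noncoding RNA genes under such numbers together with an Ensembl ID, and in GENCODE M21 these followed 1 order without exception over 138 steps: by chromosome sorted as text, then plus before minus strand, then position. By this order, an anchor between 2 anchors of the same chromosome and strand had to share them, as it did in 65 of 65 cases. That count is therefore no separate check. Loci numbered between such anchors were placed on their chromosome and strand, as an inference from the numbering. The inference takes new loci to follow the order of the anchors, which was not tested. No coordinates are given because the build of the study is not stated. The numbering placed 388 members with strand, 210 on the plus and 178 on the minus strand, and 129 on a chromosome only. It left 202 without a place. Of the plus-strand loci 18 rose (8.57%) and 39 fell (18.6%), and of the minus-strand loci 14 rose (7.87%) and 31 fell (17.4%). Among all 719 members the shares were 9.46% and 20.2%, and among everything tested 9.17% and 8.96%.

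Placed members were found on every autosome and on chromosome X. Chromosome 11 held 60, chromosome 2 held 51 and chromosome 7 held 46, while chromosome 16 held 3. As a share of the new loci placed on the same chromosome, members ran from 1.99% on chromosome 16 to 6.90% on chromosome 14. On chromosome 17, 12 of 35 members fell and 2 rose, and on chromosome 6, 3 of 39 fell and 2 rose. Both are examples from the 20 chromosomes, beside 145 falls and 68 rises among all 719 members (20.2% and 9.46%). Falls outnumbered rises on 13 of the 20 chromosomes, rises outnumbered falls on 4, and 3 had equal numbers. These counts depend on how many anchors a chromosome has, and differences between chromosomes were not tested.

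From the numbering alone, several of the loci described above could be placed by named noncoding genes. Each position below is this inference, which was not tested. ONT.350 and ONT.381 are numbered ahead of the first anchor, Gas5, a host gene of small nucleolar RNAs on the plus strand of chromosome 1, and had log2 fold changes of 0.27 and -0.57. All 20 members ahead of this anchor were assigned to its chromosome and strand, a step that the order between anchors does not cover. ONT.1023 lies on the minus strand of chromosome 1, between 2810408I11Rik and Gm29538. ONT.20189 lies on the plus strand of chromosome 6 between 1810044D09Rik and Lockd, ONT.16980 on the plus strand of chromosome 4 between Snhg12 and 4930455G09Rik, and ONT.10498 on the plus strand of chromosome 17 between Gm17251 and Gm20703. Among the falls, ONT.4175 lies on the minus strand of chromosome 11 between Snhg15 and 2610507I01Rik, and ONT.13919 on the plus strand of chromosome 2 between AV099323 and Zfas1. Among the rises, ONT.16851 lies on the plus strand of chromosome 4 between 4933424M12Rik and Gm12940, ONT.14237 on the minus strand of chromosome 2 between 8030442B05Rik and D330023K18Rik, and ONT.25797 on chromosome X between Jpx and C430049B03Rik. The gaps between anchors are wide, so these names give the neighbourhood and not the nearest gene. For the locus at the top of the list, ONT.15158, the anchors Snhg17 and Gm15417 do not share a chromosome and strand, and no chromosome could be given.

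Members close in number were compared for their direction. In 43 pairs of members with consecutive numbers, 30 had log2 fold changes of the same sign (69.8%), and the correlation of these values across pairs was 0.33 (Pearson). At 2 to 3 numbers apart, 48.3% of 60 pairs had the same sign, and the correlation was 0.26. At 4 to 10 apart, 60.0% of 105 pairs had the same sign, 11 pairs were called the same way and 3 in opposite ways, and the correlation was 0.25. It was 0.00 over 225 pairs 11 to 30 apart (49.3% of the same sign) and 0.07 over 230 pairs 31 to 100 apart (52.6%). These are descriptions across loci that share the same 6 libraries, and loci are not independent. Of the consecutive pairs, 1 had both members called lower, and 1 had members called in opposite directions.

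A series of neighbouring loci, singled out after its values were seen, shared an order of the sham libraries. In order of their numbers it is the longest unbroken series of members that were highest in sham 2 and lowest in sham 3, an order that 35 of the 719 members had (4.87%), beside 15.3% of known genes at 20 CPM or more. The series runs from 25398 to 25470 and has 8 members: ONT.25398, ONT.25399, ONT.25400, ONT.25401, ONT.25406, ONT.25409, ONT.25412 and ONT.25470. The order chose them, so it is a description. Among all 38 new loci in this span, members or not, 11 had that order. ONT.25412, for example, had 81.4, 173 and 50.5 CPM in sham 1 to 3 and 17.7, 29.6 and 35.7 in tMCAO, with every tMCAO library below sham. The log2 fold changes of the 8 ran from -2.33 to -0.61, and ONT.25398, ONT.25409 (-1.53 ± 0.39, adjusted p = 0.0246) and ONT.25470 (-0.95 ± 0.26, adjusted p = 0.0282) passed the test. The call of ONT.25409 was lost in 5 alternatives, without sham 1, sham 2, tMCAO 1 or tMCAO 3 and without sham 1 and tMCAO 3 together (adjusted p from 1.15e-06 to 0.173). That of ONT.25470 was lost in 5, without sham 1, sham 2 or tMCAO 2, without sham 1 and tMCAO 3 together and with library totals (2.27e-05 to 0.0829).

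The sum over the 13 protein genes of the mitochondrial genome had the same order in sham, at 23311, 33504 and 17887 CPM. So did the choroid plexus, erythroid, astrocyte and myelin sums. Of the mitochondrial genes, mt-Nd3 had another order, with 102, 182 and 118 CPM in sham 1 to 3. In tMCAO, library 2 was highest for 6 of the 8 loci. It was also highest for the astrocyte sums (64.0, 91.1 and 73.5 CPM in tMCAO 1 to 3) and the myelin sums (155, 372 and 161), but not for the mitochondrial sums (8900, 8299 and 10361), the choroid plexus sums (2276, 4049 and 9986) or the erythroid sums (301, 215 and 380). The series is numbered after the last anchor of chromosome 9, Snhg5, and before the first of chromosome X, Jpx, and was not placed. In text order the mitochondrial genome, and possibly unplaced scaffolds, would also fall in this gap, which holds 13 members, ONT.25331 and ONT.25400 among them. Whether any of these loci lies there was not tested. Whether any of these sums has a part in the levels of these loci was not tested.

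For the 3 loci at the top of the list, the known genes with the most similar profile over the 6 libraries were looked up among 4410, by Pearson correlation of log2(CPM + 1), as a description with no test. ONT.15158 was closest to Hspa1a (1.00), an inducible heat shock protein with a near-identical copy in Hspa1b, so that its counts are uncertain. Hspa1a had 1084, 733 and 1128 CPM in sham and 262, 289 and 284 in tMCAO. Next were Rpl35a and Rpl26, which encode proteins of the large ribosomal subunit (both 0.99). ONT.350 was closest to Sgk3, a serum- and glucocorticoid-regulated kinase, Nmt1, an N-myristoyltransferase, and Kdm5c, a histone demethylase (each 0.99). ONT.10033 was closest to Rps25, a protein of the small ribosomal subunit (0.99), Klk8, a serine protease (0.98), and Col6a3, a collagen chain (0.97). Each is the closest of 4410 genes over only 6 libraries, and is close by selection.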

How the data were processed

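Nanopore cDNA libraries of 6 pools were analysed from 1 table of the whole series. Per the file headers, the authors deposited raw read counts per gene and locus and, beside them, CPM columns, which matched counts divided by library totals to within 4.87e-06. The submitters' processing notes name minimap2. No source used here names the build, the annotation, the tool that built the new loci or how reads were counted and whether by strand. Of 38219 lines, 12 that held only spilled annotation text were left out. No column was without a sample.

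Counts were fitted over the whole table with edgeR 4.0.16 in R 4.3.3: filterByExpr (minimum count 10, minimum total 15), TMM, robust quasi-likelihood F tests with the group as the only term, and Benjamini-Hochberg adjustment. The SE is the absolute log2 fold change divided by the square root of F. DESeq2 1.42.0, limma 3.58.1 (voom), other scalings, libraries left out, a replicate block and other levels were the alternatives. The code was tested on simulated data. Between replicates, chi-square per degree of freedom over the loci was at least 5.54, above sampling noise, and each library was counted as 1 sample. Counts carry no molecular identifiers.

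Named are the 12 loci with the highest mean, the 8 largest rises and 8 largest falls among called loci without overlap of the groups, loci at the edge of the level and with a count of 0, and the 3 genes most like each of 3 loci. Members, lists of marker genes and this rule were chosen with earlier results of these data known. Chromosomes came from the numbering, compared with GENCODE M21.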

Additional observations from a re-analysis of the deposited data

How the results depend on the processing

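The number of loci called higher, 68 of 719, was 112 with no filter on low counts and 45 with the replicate block, and from 38 to 82 with 1 library left out. Over everything tested, 1204 higher became 2053 with no filter, 834 with the block and from 700 to 1423 with 1 library left out. The number of loci called lower, 145, was 89 when sham 1 and tMCAO 3 were dropped together and from 77 to 145 with 1 library left out. Over everything tested, 1176 lower became 652 and from 554 to 1167 in these settings. The level that selects the loci moved both counts: 126 higher and 303 lower of 1701 loci at 10 CPM, 31 and 48 of 227 loci at 50 CPM, and 45 and 85 of the 548 with both group means at 20 CPM. Other scalings, DESeq2 and limma voom kept both counts within 1.5 times. The median log2 fold change stayed below 0 in all 15 alternatives, from -0.23 to -0.03, and the summed level stayed lower in tMCAO in all 11 of its own. Of 420 values of the 28 loci named by rule, 377 kept direction and side of the threshold, 34 lost and 9 gained the call, and none reversed. Deviations of same-numbered libraries from their group means correlated at -0.23, 0.03 and -0.18, and those of sham 1 and tMCAO 3 at 0.27. Deviations within a group of 3 constrain each other, so these values cannot show whether libraries were prepared in pairs. The block kept 43 of the rises and 108 of the falls and ended the call of ONT.25797 (adjusted p = 0.0508). Depth limits the level of 1 count to about 0.4 to 0.5 CPM.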
